A study of Mus musculus with 16 samples.

Results

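The megakaryocyte-primed cells described here were 106 of 5157 single LSK cells, or 2.06% (Wilson 95% interval 1.70 to 2.48%), sorted from mouse bone marrow and sequenced by MARS-seq, a plate-based method that counts the 3' ends of transcripts with unique molecular identifiers (UMIs). LSK stands for Lin–Sca1+Kit+, the surface profile of the marrow fraction that holds the blood stem cells and the earliest progenitors. Cells were kept with at least 500 UMIs and a mitochondrial share under 20% of UMIs. Among them, a cell was taken when the UMIs of Pf4, Itga2b, Vwf, Gp1bb and Cavin2 (the M sum) came to 2 or more and exceeded the UMIs of Car1, Klf1, Mfsd2b and Apoe (the E sum). These 9 genes chose the cells, so their levels are given as a description and were not tested.

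All 16 libraries came from C57BL/6J material and carry the same labels. The hosts were lethally irradiated mice (CD45.1/CD45.2) that had received fetal liver cells in an equal mix, those of controls marked by CD45.1 and those of genotype Regnase-1–/–Regnase-3–/– by CD45.2, and LSK cells were sorted 4 weeks after the transfer. The labels give neither the genotype of a library or cell nor the mouse it came from, so no comparison between the genotypes was made, and libraries may share mice. The comparisons were made within libraries. Megakaryocyte-primed cells were set against the other 5051 kept cells, against 379 erythroid-primed cells (E of 2 or more and above M) and against 442 stem-gated cells (2 or more UMIs of Mecom, Hlf, Procr and Pdzk1ip1, with M and E each under 2). The libraries held 521435 to 822534 UMIs and 295 to 345 kept cells each, and no well ID occurred in more than 1 library.

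Megakaryocytes are the large marrow cells that shed platelets. Their genes encode the adhesion receptors, granule proteins and signalling enzymes of the platelet, under transcription factors of the GATA and ETS families, and their growth depends on the hormone thrombopoietin. Some cells of the stem and progenitor fraction already carry a few of these transcripts while they still have stem cell surface markers, which is called priming.

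The rule genes each stand for a part of the platelet. Pf4 encodes platelet factor 4, a chemokine of the alpha granules, and Vwf the adhesive von Willebrand factor stored beside it. Itga2b encodes CD41, the alpha chain of the fibrinogen receptor, and Gp1bb a chain of the receptor for von Willebrand factor. Cavin2 encodes a protein of caveolae. The start regions of 3 of these genes are printed from RefSeq (GRCm38.p6). That of Gp5, a further chain of the von Willebrand factor receptor that the rule did not use, is printed with them. Each runs 5' to 3' on the gene's strand, from 250 bases before to 50 bases after the start. Capitals mark matches on either strand to the GATA motif (AGATAA or TGATAA) or the ETS motif (AGGAAG or CGGAAG); the motifs did not overlap. Vwf had no entry in the promoter table. Cavin2, which is not printed, had 1 ETS match and no GATA match.
Pf4: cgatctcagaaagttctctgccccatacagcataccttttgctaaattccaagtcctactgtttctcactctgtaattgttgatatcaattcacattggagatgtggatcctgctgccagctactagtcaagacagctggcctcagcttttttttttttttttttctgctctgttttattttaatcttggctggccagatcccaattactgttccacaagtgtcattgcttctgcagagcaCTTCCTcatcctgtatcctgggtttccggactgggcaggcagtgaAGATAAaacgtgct
Itga2b: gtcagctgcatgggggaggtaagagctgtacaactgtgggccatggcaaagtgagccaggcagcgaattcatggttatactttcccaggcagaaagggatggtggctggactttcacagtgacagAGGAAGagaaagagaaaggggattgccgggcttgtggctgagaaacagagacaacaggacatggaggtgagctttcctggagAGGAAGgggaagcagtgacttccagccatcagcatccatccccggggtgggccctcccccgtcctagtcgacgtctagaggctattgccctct
Gp1bb: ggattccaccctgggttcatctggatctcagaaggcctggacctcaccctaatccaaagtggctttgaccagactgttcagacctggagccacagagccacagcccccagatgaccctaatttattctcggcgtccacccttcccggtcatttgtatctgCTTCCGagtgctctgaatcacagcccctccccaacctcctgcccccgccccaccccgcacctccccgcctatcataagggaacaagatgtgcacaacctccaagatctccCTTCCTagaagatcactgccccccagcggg
Gp5: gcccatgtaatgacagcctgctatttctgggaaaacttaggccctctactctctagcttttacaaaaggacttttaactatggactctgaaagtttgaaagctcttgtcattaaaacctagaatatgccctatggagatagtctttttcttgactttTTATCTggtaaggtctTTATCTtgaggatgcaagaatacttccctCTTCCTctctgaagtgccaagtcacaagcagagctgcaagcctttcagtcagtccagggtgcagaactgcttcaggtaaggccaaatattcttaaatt
Pf4 lay at chr5:90772185-90772484 on the plus strand, with 1 GATA and 1 ETS match. Itga2b lay at chr11:102469834-102470133 on the minus strand, with 2 ETS matches. The window of Gp1bb was chr16:18622354-18622653 on the minus strand, with 2 ETS matches. The window of Gp5 was chr16:30310732-30311031 on the minus strand, with 2 GATA matches and 1 ETS match. Such matches are common: 18.9% of 27025 promoters of the same length held a GATA match, 46.4% an ETS match and 7.83% both. Among genes named below, F2rl2 had 1 match of each kind. Gp9, Rap1b and Cd9 had 1 ETS match and no GATA match, and Plek had neither. The printed genes are examples, and no share can be read from them.

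Pf4 supplied most of the M sum. It was detected in 87 of the 106 megakaryocyte-primed cells (82.1%, 560 UMIs), against 3.01% of the other cells. Itga2b was detected in 43 megakaryocyte-primed cells (40.6%), against 2.38% of the other cells. Cavin2 was detected in 40 (37.7%, against 0.574%), Gp1bb in 25 (23.6%, against 0.554%) and Vwf in 22 (20.8%, against 0.634%). The genes came in combinations: 39 cells had 1 of the 5 genes, 39 had 2, 16 had 3, 8 had 4 and 4 had all 5. Pf4 was found with Cavin2 in 32 cells, with Itga2b in 31 and with Vwf in 21.

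The M sum ran from 2 to 50, with a median of 3.5. At the threshold itself lay 30 cells with an M of 2, and 23 more had 3; 25 had 4 to 7 and 28 had 8 or more. Just outside it, 272 cells had an M of 1, and 56 cells had an M of 2 or more that did not exceed E, of which 35 were erythroid-primed and 21 tied. As a background, 591 kept cells of any class had 5 or more UMIs of the neutrophil granule genes Mpo, Elane, Prtn3 and Ctsg, at a median of 3335 UMIs a cell. Of these, 51 (8.63%) had an M of 1 or more, close to the 8.42% of all kept cells, 6 (1.02%) had an M of 2 or more, and 3 (0.508%) met the rule. The difference between 8.63% and 8.42% lay within the counting interval (6.62 to 11.2%). Of the erythroid rule genes, Apoe was detected in 46 megakaryocyte-primed cells (43.4%, against 15.2% of the other cells) and Mfsd2b in 27 (25.5%, against 2.44%), while Car1 was found in 3 and Klf1 in 2.

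**Figure D1:**
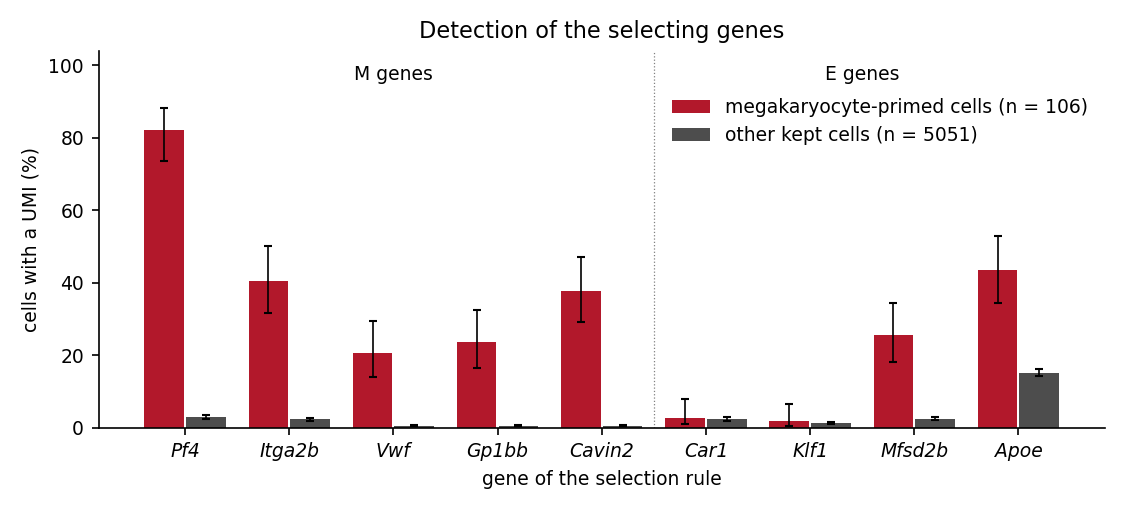
Percent of cells with at least 1 UMI of each of the 9 genes that define the rule, in megakaryocyte-primed cells (left bar of each pair) and in the other kept cells, with 95% binomial intervals. Pf4 was detected in 82.1% of megakaryocyte-primed cells and 3.01% of the other cells; the rule itself sets these differences.

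Transcripts of the sort markers were found in both classes. Kit, the receptor in the sort, was detected in 40 megakaryocyte-primed cells (37.7%) and in 25.3% of the other cells, and Ly6a, which encodes Sca1, in 26 (24.5%) and in 26.8% of the other cells. Of genes that mark finished megakaryocytes and platelets, Tubb1, Gp6 and Clec1b had no UMI in megakaryocyte-primed cells, and 4, 0 and 1 UMIs in the 5051 other cells. With so few UMIs anywhere, these genes do not tell primed cells from megakaryocytes: 0 of 106 cells allows levels of up to 10.2 CPM (UMIs scaled by the total UMIs of the class) and up to 2.83% of cells with a UMI, not of cells expressing the gene, by counting error alone. Ppbp, a further platelet granule chemokine, had 2 UMIs in 1 megakaryocyte-primed cell and 9 UMIs in 7 other cells. Cd3e (T cells) and Ly6g (neutrophils) had no UMI in either class.

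Every library held megakaryocyte-primed cells, 2 to 17 of them, with a median of 5.5. Their share of kept cells ran from 0.597% in library 1 to 5.74% in library 14, with a median of 1.68%. Libraries 13 and 14 stood highest, with 13 and 17 cells, and their 95% intervals (2.45 to 6.997% and 3.62 to 9.004%) lay wholly above the share over all libraries. Depth differed between the classes: megakaryocyte-primed cells had a median of 2258.5 UMIs (544 to 13717) and the other cells 1548. After each cell had been thinned to 500 UMIs, 39 cells met the rule, 34 of them among the 106, and the share ran from 0 to 3.04% with a median of 0.752%. Library 14 was highest there too, with 9 cells, while library 13 had 3 cells (0.962%), below library 10 with 4 (1.18%). By the sequencing batch in the well table, the share was 2.78% in batch SB343 (53 of 1909 cells in 6 libraries) and 1.75% in batch SB341 (51 of 2913 cells in 9 libraries). Libraries 13 and 14 belong to SB343. Its libraries 11, 12, 15 and 16 had 1.76, 2.61, 1.25 and 1.36%, within the range of the SB341 libraries (0.639 to 2.96%).

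**Figure D2:**
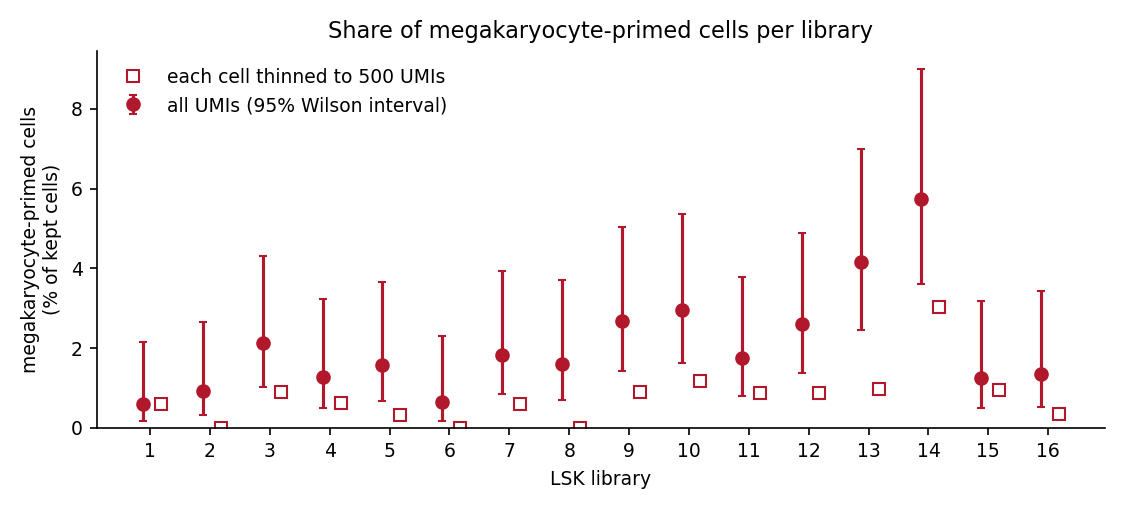
Share of kept cells that were megakaryocyte-primed in each of the 16 libraries, in percent, with Wilson 95% intervals (circles), and the share after each cell was thinned to 500 UMIs (open squares). Library 14 is highest at 5.74% and library 1 lowest at 0.597%; the intervals cover counting error only.

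For the comparison with the other cells, UMIs were summed per library and class and tested with edgeR's quasi-likelihood test with the library as a block and Benjamini-Hochberg adjusted p-values (threshold 0.05); each log2 fold change is given ± its standard error. The design asked for 10 cells of each class in a library, which only libraries 10, 13 and 14 met, with 40 of the 106 cells. There 61 of 4937 genes were called (1.24%), 20 of them higher (0.405%) and 41 lower (0.83%) in megakaryocyte-primed cells. The split was 32 higher and 28 lower with library totals, and 23 higher and 36 lower with the size factors of DESeq2 (RLE). The calls leaned on the small number of libraries: 58 genes were called without library 10, 8 without library 13 and 28 without library 14. Rap1b and Slc14a1, which were higher, and Plac8, Mpo, Dntt and H2afy, which were lower, stayed called whichever library was left out. Slc14a1 passed the filter on low counts through the megakaryocyte-primed sums and Dntt through those of the other cells, which largely fixed their directions.

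A further fit, chosen after the cell numbers were known, took all 16 libraries and scaled them to their total UMIs. It called 170 of 4155 genes (4.09%), 80 higher (1.93%) and 90 lower (2.17%), and 95 of them, 36 higher and 59 lower, kept the call whichever library was left out. The balance of the directions depends on the scaling: it was 99 higher and 79 lower with size factors of the DESeq2 kind (RLE) and 26 higher and 459 lower with TMM factors, under which the median log2 fold change over all genes was -0.33 against 0.04 with library totals. The 13 libraries outside the planned fit called 92 of 3833 genes (2.4%), 40 higher (1.04%) and 52 lower (1.36%). There 10 of the 20 higher genes and 39 of the 41 lower genes could be tested; all of them had the same sign there, and 9 and 27 were called. Without a filter on low counts, the 16 libraries called 235 of 22647 genes (1.04%), 153 higher (0.676%) and 82 lower (0.362%). Because the cells were picked by their own expression, any gene that tracks the 9 rule genes from cell to cell is bound to differ. The p-values therefore overstate the evidence, and by how much is unknown.

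Among the genes of platelet signalling, Rap1b was higher in 16 of 16 libraries. It encodes the small GTPase that switches on the fibrinogen receptor, and was detected in 75 of the 106 cells. It stood at 1892, 1081 and 1373 CPM in megakaryocyte-primed cells of libraries 10, 13 and 14, against 309.9, 235 and 229.6 CPM in the other cells of the same libraries. The 16-library values did not overlap, at 471 to 1892 CPM over the 16 libraries in megakaryocyte-primed cells, with a median of 977, against 180.4 to 309.9 CPM in the other cells. The log2 fold change was 2.26 ± 0.22 (adjusted p = 8.65e-22) in the 3 libraries and 2.14 ± 0.15 (adjusted p = 3.86e-45) in all 16, where the adjusted p was at most 1.55e-35 with any library left out. Within batches SB341 and SB343 the log2 fold changes were 2.09 and 2.19.

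The thrombin receptor F2r had 135, 438 and 199 CPM in megakaryocyte-primed cells, against 63.1, 67.7 and 57.9 CPM in the other cells, in libraries 10, 13 and 14. Its log2 fold change was 1.85 ± 0.47 (adjusted p = 0.00907) in the 3 libraries and 2.62 ± 0.30 (adjusted p = 6.42e-16) in 16, and it was higher in 14 of 16 libraries. Its relative F2rl2, which presents thrombin to platelets in the mouse, had 45, 51.5 and 111 CPM in megakaryocyte-primed cells, against 3.6, 9.41 and 0 CPM in the other cells; with 17 UMIs in 11 cells it is a low-count gene, and it lies inside Iqgap2 on the opposite strand, from which it could not be told apart if strand was not used in counting. Ptgs1, the cyclooxygenase at the head of platelet thromboxane synthesis, had 180.1, 154 and 155 CPM in megakaryocyte-primed cells, against 21.6, 18.8 and 17.4 CPM in the other cells. For F2r, the 3 libraries of megakaryocyte-primed cells lay above all 3 values of the other cells. F2rl2 and Ptgs1 did so too, but passed the filter on low counts only through the megakaryocyte-primed sums, which largely fixed that direction. The fold changes without a filter were 3.85 ± 0.48 (adjusted p = 3.81e-10) for F2rl2 and 2.66 ± 0.33 (adjusted p = 2.87e-10) for Ptgs1 on the log2 scale. Over the list of platelet receptors and signalling, 11 of 32 genes were tested in 16 libraries and 3 were called higher (F2r, Rgs18 and Itga6), against 1.93% of all genes, and none lower, with a median log2 fold change of 0.56; Itga6 lost its call without library 11 (adjusted p = 0.0529).

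Plek encodes pleckstrin, the main protein kinase C substrate of platelets. It had 360.3, 360.5 and 465 CPM in megakaryocyte-primed cells, against 95.5, 120.4 and 102 CPM in the other cells, and log2 fold changes of 1.71 ± 0.36 (adjusted p = 0.000425) in the 3 libraries and 1.62 ± 0.25 (adjusted p = 9.35e-09) in 16. The receptor chains that the rule did not use followed. Itgb3, the beta chain that pairs with Itga2b, had 45, 257 and 155 CPM in megakaryocyte-primed cells, against 18, 13.2 and 9.65 CPM in the other cells, and Gp5 had 45, 77.2 and 66.4 CPM in megakaryocyte-primed cells, against 7.21, 3.76 and 3.86 CPM in the other cells. Without a filter on low counts, the log2 fold changes were 3.28 ± 0.35 (adjusted p = 3.62e-13) for Itgb3, 3.39 ± 0.45 (adjusted p = 5.58e-08) for Gp5 and 2.50 ± 0.35 (adjusted p = 6.31e-08) for Gp9, the chain that completes the von Willebrand factor receptor. Itgb3 and Gp5 were found in 20 and 14 of the 106 cells. In the 3 planned libraries both passed the filter on low counts only through the megakaryocyte-primed sums. That they were higher in each of these libraries was therefore largely fixed by the filter. Gp1ba, the ligand-binding chain of the same receptor, had 3 UMIs in all and was not called (adjusted p = 0.563).

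Slc14a1 encodes a urea transporter known from red cells. It stood at 495, 412 and 421 CPM in megakaryocyte-primed cells of libraries 10, 13 and 14, against 43.2, 33.9 and 25.1 CPM in the other cells of the same libraries, a log2 fold change of 3.50 ± 0.45 (adjusted p = 1.45e-11). It was detected in 42 megakaryocyte-primed cells. It passed the filter on low counts through the megakaryocyte-primed sums, so its direction in these libraries was largely fixed. Among the genes of later granules and platelets, Treml1 (an alpha granule receptor) had 17 UMIs in 11 cells and 57.9 CPM over all megakaryocyte-primed cells and 2.86 CPM over other cells, Rab27b (a GTPase of granule transport) 64.7 CPM over all megakaryocyte-primed cells and 7.39 CPM over other cells, and Mmrn1 (multimerin, a granule protein) 57.9 CPM over all megakaryocyte-primed cells and 7.49 CPM over other cells. All of them were called in the 16 libraries without a filter, with adjusted p-values of 1.09e-10, 6.91e-08 and 1.54e-06. Timp3, a metalloproteinase inhibitor, had 21 UMIs in 7 cells and was called too (log2 fold change 4.41 ± 0.46, adjusted p = 1.69e-13). Selp, which encodes the granule adhesion protein P-selectin and is also found on stem cells, went against the list with 3 UMIs in megakaryocyte-primed cells and 32.3 CPM in the other cells, which was not called (adjusted p = 0.191).

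Of 40 megakaryocyte maturation genes in the table, 12 had counts enough for the 16-library fit, and 10 were called higher, against 1.93% of all genes, and none lower, with a median log2 fold change of 1.25 beside 0.04 over all genes. Relative to the median of all genes, the list stood at 1.21 with library totals and at 1.18 with TMM factors. Tmem40 (2.75 ± 0.32, adjusted p = 2.16e-15), the tetraspanin Cd9 (1.88 ± 0.30, adjusted p = 4.59e-08) and Rgs18, a brake on G protein signalling in platelets (1.19 ± 0.21, adjusted p = 2.92e-06), were called with Rap1b and Plek whichever library was left out. The others were less secure: Sla lost its call without library 14 (adjusted p = 0.0571), Angpt1 without library 9 or 12 (up to 0.0958), Fermt3 without 12 or 13 (up to 0.125) and Ctla2a with any of libraries 4, 5, 9, 10, 12, 14 and 15 left out (up to 0.124). Summed over the list, megakaryocyte-primed cells had 4951 CPM (3424 to 6691 by library) and the other cells 1803 CPM (1554 to 1978), so the libraries did not overlap. Per cell, the median number of detected list genes was 6 in megakaryocyte-primed cells, 4 in erythroid-primed cells, 3 in stem-gated cells and 2 in the other cells. In 44 megakaryocyte-primed cells (41.5%) there were 8 or more, against 13.5% of erythroid-primed cells, 3.17% of stem-gated cells and 2.06% of the other cells. These counts were not matched for depth, and megakaryocyte-primed cells were deeper than the other cells.

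**Figure D3:**
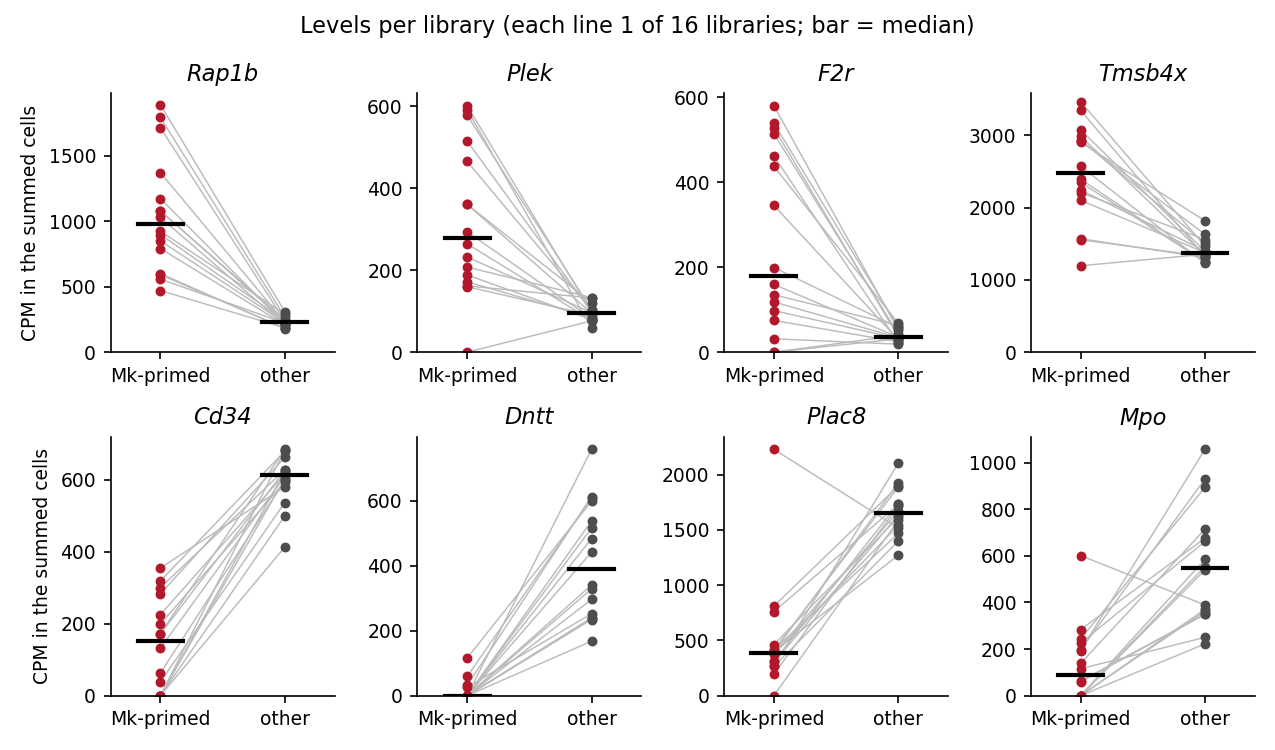
Level in CPM of 8 genes in megakaryocyte-primed cells (left) and in the other kept cells (right), with a line joining the classes of each library (n = 16) and the median as a bar. Rap1b is above the other cells in 16 of 16 libraries and Cd34 below them in 16 of 16.

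The transcription factors of the lineage rose in part. Zfpm1, which encodes FOG1, the partner of GATA1, had 315, 592 and 332 CPM in megakaryocyte-primed cells, against 82.9, 90.3 and 149 CPM in the other cells, and log2 fold changes of 1.76 ± 0.35 (adjusted p = 0.000232) in the 3 libraries and 1.86 ± 0.24 (adjusted p = 2.90e-12) in 16. Every value in megakaryocyte-primed cells lay above every value in the other cells of these 3 libraries. Zfpm1 and its neighbour Gm45353, called with it, share an annotated read-through transcript, so their counts may not be separate. Gata2, a GATA factor of stem cells and early megakaryocytes, was called in 16 libraries (1.82 ± 0.26, adjusted p = 1.10e-09) and not in the 3 (adjusted p = 0.671). Gfi1b, a repressor needed by megakaryocytes (1.72 ± 0.36, adjusted p = 0.000168), Fli1, the ETS factor that drives platelet genes (1.48 ± 0.28, adjusted p = 7.98e-06), and Mef2c (0.86 ± 0.23, adjusted p = 0.00644) were higher as well. Tal1 lost its call without library 10, 12 or 16 (adjusted p up to 0.14). In all, 7 of 24 tested factors were called higher, against 1.93% of all genes, and none lower, with a median log2 fold change of 0.19. Gata1 itself, with 18 UMIs in 12 cells, was at 61.3 CPM over all megakaryocyte-primed cells and 18.1 CPM over other cells and was called without the filter (1.66 ± 0.40, adjusted p = 0.0131). Runx1 (0.69 ± 0.29, adjusted p = 0.203), Nfe2 (0.39 ± 0.24, adjusted p = 0.477) and Lmo2 (0.24 ± 0.14, adjusted p = 0.445) were not called.

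Of the thrombopoietin and JAK-STAT genes, 11 of 22 were tested in 16 libraries. Of these 11, 2 were called higher, against 1.93% of all genes, and none lower, and their median log2 fold change was -0.02. Stat5a, which carries the signal of thrombopoietin to the nucleus, was called (1.13 ± 0.36, adjusted p = 0.0465) but lost the call with any of libraries 1, 2, 3, 5, 6, 7, 9, 11, 13, 15 and 16 left out (adjusted p up to 0.223). Cish, a feedback inhibitor that STAT5 induces, had 11 UMIs in 6 cells and was called without the filter (1.94 ± 0.49, adjusted p = 0.0316). Jak2 (0.80 ± 0.41, adjusted p = 0.582, without the filter) and Stat3 (0.20 ± 0.38, adjusted p = 0.893) were not called. Tmsb4x, the actin-binding thymosin of platelets and other blood cells, had 2927, 2935 and 2989 CPM in megakaryocyte-primed cells, against 1631, 1507 and 1341 CPM in the other cells, with log2 fold changes of 0.79 ± 0.18 (adjusted p = 0.00267) and 0.78 ± 0.09 (adjusted p = 6.01e-16). Of 27 cytoskeleton genes tested, it alone was called, a share near the 4.09% called over all genes. Nrgn, a calmodulin-binding protein found in platelets (1.34 ± 0.20, adjusted p = 5.70e-09), and Pdcd4, an inhibitor of translation (1.63 ± 0.20, adjusted p = 3.42e-14), were higher too.

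Of the tested neutrophil and monocyte genes, 9 of 14 were lower, against 2.17% of all genes. Plac8, a gene of early myeloid and lymphoid progenitors, had 811, 412 and 399 CPM in megakaryocyte-primed cells, against 1897, 1889 and 1926 CPM in the other cells, with log2 fold changes of -2.12 ± 0.24 (adjusted p = 1.82e-15) in the 3 libraries and -1.87 ± 0.13 (adjusted p = 1.33e-45) in 16. Mpo, the myeloperoxidase of granules, had 225, 283 and 244 CPM in megakaryocyte-primed cells, against 661, 676 and 893 CPM in the other cells and log2 fold changes of -1.75 ± 0.29 (adjusted p = 9.20e-07) and -2.11 ± 0.22 (adjusted p = 6.56e-20). Neither gene's values overlapped between the classes in these libraries. Of the other granule proteases, Ctsg (-4.12 ± 0.55, adjusted p = 1.83e-11) and Prtn3 (-2.20 ± 0.30, adjusted p = 3.03e-11) were lower, and Elane was not called (-0.05 ± 0.41, adjusted p = 0.985). None of the list was called higher, and it had a median log2 fold change of -1.39; Cst7 lost its call with any of libraries 3, 9, 10, 11, 12, 14 and 16 left out (adjusted p up to 0.107). The summed level was 2441 CPM (1276 to 3605 by library) in megakaryocyte-primed cells and 5238 CPM (3830 to 7121) in the other cells. Those other cells include the granule-primed ones, so this is a comparison with a mixed population.

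Of the tested lymphoid genes, 9 of 15 were lower, against 2.17% of all genes. Dntt, the terminal transferase of lymphoid progenitors, had 0, 25.7 and 0 CPM in megakaryocyte-primed cells, against 328, 252 and 239 CPM in the other cells. It gave 4 UMIs in all megakaryocyte-primed cells, and its log2 fold change was -4.93 ± 0.76 (adjusted p = 9.04e-08) in the 3 libraries and -4.71 ± 0.41 (adjusted p = 4.64e-27) in 16. Ighm, the sterile transcript of the immunoglobulin heavy chain locus, also had 4 UMIs (-4.01 ± 0.47, adjusted p = 7.11e-15). Flt3, the cytokine receptor of multipotent and lymphoid progenitors, had no UMI in megakaryocyte-primed cells of the 3 libraries, against 124, 120 and 86.8 CPM in the other cells; at a floor of 3 UMIs over the 3 libraries (28.2 CPM) it was at least 3.79-fold lower. In all 16 libraries Flt3 had 7 UMIs (-2.22 ± 0.48, adjusted p = 0.000208). Dntt, Ighm and Flt3 passed the filter on low counts only through the sums of the other cells, which largely fixed their lower direction. Emb (-2.23 ± 0.29, adjusted p = 3.11e-12) and Cd52 (-2.11 ± 0.33, adjusted p = 3.11e-08), surface proteins of lymphoid and other white cells, and the chromatin organiser Satb1 (-2.68 ± 0.53, adjusted p = 2.95e-05) were lower. Mef2c, on the same list, was called higher, and the list had a median log2 fold change of -1.38; Lsp1 lost its call without library 3 or 14 (adjusted p up to 0.0838). Il7r, Rag1, Ebf1 and Cd27 had no UMI in megakaryocyte-primed cells.

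Genes shared by stem and early progenitor cells moved in both directions. Cd34, the sialomucin that marks cells leaving the most immature state in the mouse, had 225, 283 and 199 CPM in megakaryocyte-primed cells, against 616, 662 and 594 CPM in the other cells, with log2 fold changes of -1.59 ± 0.30 (adjusted p = 5.17e-05) in the 3 libraries and -1.98 ± 0.21 (adjusted p = 3.05e-19) in 16; it was lower in 16 of 16 libraries, at 0 to 355 CPM over the 16 libraries in megakaryocyte-primed cells, with a median of 152, against 413 to 685 CPM in the other cells. H2afy, which encodes the histone variant macroH2A1, was lower as well, with log2 fold changes of -1.77 ± 0.22 (adjusted p = 3.15e-12) and -1.58 ± 0.11 (adjusted p = 1.73e-41). Ifitm1, an interferon-inducible membrane protein, was lower (-1.53 ± 0.23, adjusted p = 4.10e-09), and Ly6a was at 119 CPM over all megakaryocyte-primed cells and 222 CPM over other cells and was not called (-0.83 ± 0.27, adjusted p = 0.0523). Of 14 stem cell genes tested in 16 libraries, 3 were called higher, Angpt1 and Mycn among them, and 2, Ifitm1 and Hlf, lower. Over all genes, 1.93% were called higher and 2.17% lower. Hlf lost its call with any of libraries 2, 3, 4, 5, 7, 12, 13, 14 and 15 left out (adjusted p up to 0.193) and Mycn with any of 1, 7, 9, 10, 11, 12, 13, 15 and 16 (up to 0.217). Meis1 was not called (0.85 ± 0.29, adjusted p = 0.0638). Of 14 interferon response genes, 4 were called lower, against 2.17% of all genes, and none higher, with a median of -0.61 or -0.65 relative to all genes. Ifitm1 and Ly6e (-0.68 ± 0.12, adjusted p = 2.32e-06) kept the call with each library left out, while Ifi203 lost it without library 3, 12, 13 or 14 (up to 0.097) and Rtp4 without 10 or 14 (up to 0.0577).

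Several further genes were called. Med12l, a subunit of the Mediator complex, had 45, 103 and 44.3 CPM in megakaryocyte-primed cells, against 12.6, 3.76 and 7.72 CPM in the other cells, while Gpr171, a receptor gene inside it on the opposite strand, had 0, 25.7 and 44.3 CPM in megakaryocyte-primed cells, against 157, 145 and 160.2 CPM in the other cells; the pair went in opposite directions (2.84 ± 0.64, adjusted p = 0.0213 and -2.62 ± 0.70, adjusted p = 0.0181), though reads of one could have been counted for the other if strand was not used. Med12l passed the filter on low counts only through the megakaryocyte-primed sums, which largely fixed its direction. Gpr171 passed it only through the sums of the other cells, which largely fixed its lower direction. Ehd3, an ATPase of membrane traffic (2.04 ± 0.58, adjusted p = 0.0357), was higher in the 3 libraries. Lower were the transcription factor Sox4 (-3.16 ± 0.63, adjusted p = 0.000196) and the tetraspanin Cd53 of white cells (-2.80 ± 0.67, adjusted p = 0.00374). Irf8, the factor of monocytes and dendritic cells, had no UMI in megakaryocyte-primed cells of the 3 libraries and was at least 2.94-fold lower at the floor of 3 UMIs over them. Irf8 too passed the filter on low counts only through the sums of the other cells. In 16 libraries the signalling adaptor Tyrobp (-2.23 ± 0.49, adjusted p = 0.000336) and the actin regulator Coro1a of white cells (-0.83 ± 0.19, adjusted p = 0.000491) were lower, and Egfl7, a secreted factor of endothelial and stem cells (-2.42 ± 0.50, adjusted p = 9.57e-05), was lower as well; Egfl7 overlaps the microRNA gene Mir126a. Of 8 tested platelet granule genes, Tgfb1, the growth factor stored in alpha granules, was called higher (1.06 ± 0.26, adjusted p = 0.00256), against 1.93% of all genes, with a list median of 0.35.

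**Figure D4:**
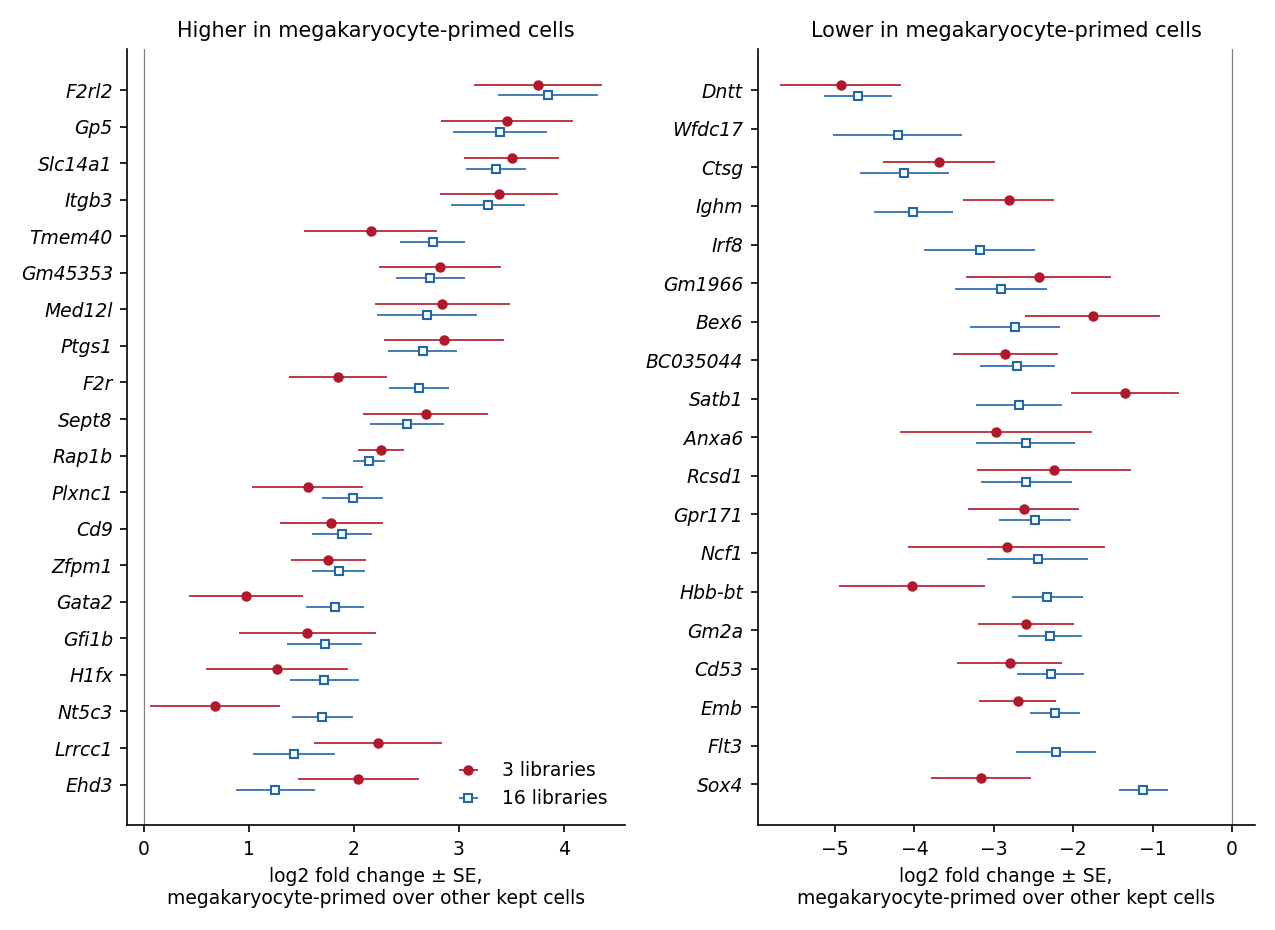
Log2 fold change of named genes, megakaryocyte-primed over the other kept cells, with standard errors: filled circles for libraries 10, 13 and 14, open squares for all 16 libraries without a filter on low counts. Rap1b is at 2.26 in 3 libraries; Flt3, Irf8 and Wfdc17 had no UMI in megakaryocyte-primed cells of the 3 libraries and have no circle.

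Of 10 erythroid genes tested outside the rule, Car2, a carbonic anhydrase of red cells and platelets, was higher (0.85 ± 0.13, adjusted p = 2.55e-09), Hemgn, a nuclear protein of erythroid cells, was higher but lost its call without library 7 (adjusted p = 0.196), and the globin gene Hbb-bt was lower (-2.32 ± 0.42, adjusted p = 2.99e-06). Over all genes, 1.93% were called higher and 2.17% lower. The summed erythroid level was 3071 CPM in megakaryocyte-primed cells, 4371 CPM in erythroid-primed cells and 2154 CPM in the other cells. Of 36 genes of the G2 and M phases tested, 3 were called higher (Mki67, Prc1 and Hmmr), against 1.93% of all genes. Each lost its call without some library, Mki67 without library 3 (adjusted p = 0.0635), Prc1 without 4 or 11 (up to 0.0939) and Hmmr without 10, 11 or 16 (up to 0.0819). The median of that list relative to all genes was 0.28 with library totals and 0.26 with TMM factors, and 35 of the 36 genes with library totals and 34 with TMM factors lay above the all-gene median. None of 26 tested G1 to S phase genes was called, against 4.09% of all genes. Of the Regnase target and NF-kB feedback list, 8 of 38 genes were tested. Gata2 and Tal1, both also on the transcription factor list, were called higher, against 1.93% of all genes. These values hold for cells of unknown genotype.

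Markers of mature cells that the sort could hold were measured in both classes. Mature neutrophil and macrophage genes summed to 57.9 CPM in megakaryocyte-primed cells (0 to 343 by library) and 54.3 CPM in the other cells (20.9 to 160.1), with 6 of 13 genes detected and S100a9, Ngp and Ltf at 0. Mature B, T and NK cell genes summed to 23.8 CPM (0 to 97.9) in megakaryocyte-primed cells and 47.4 CPM (31.6 to 71.5) in the other cells, with Cd79b the 1 gene of 12 detected. Mast cell and basophil genes stood at 177 CPM (0 to 532) in megakaryocyte-primed cells and 219 CPM (165 to 264) in the other cells, with 8 of 18 detected and Gzmb, Mcpt8 and Fcer1a at 0. Endothelial and stromal genes stood at 109 CPM (0 to 578) in megakaryocyte-primed cells and 252 CPM (202 to 348) in the other cells, with 5 of 14 detected and Cdh5, Kdr and Cldn5 at 0. Mature platelet genes stood at 3211 CPM (1675 to 4634) in megakaryocyte-primed cells and 1609 CPM (1413 to 2130) in the other cells; Tmsb4x, which many blood cells share, gave 718 of the 943 UMIs, and Tubb1, Gp6, Clec1b and F13a1 were at 0. Ltf and Cdh5 had no UMI in the other cells either. The part of attached platelets or of more than 1 cell in a well in these results was not tested. Of the 106 cells, 34 had at least 2 times the median UMIs of their library. The same count was not made for the other kept cells, and the rule's minimum of 2 UMIs favours deeper cells.

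Cells of the same depth could be compared for 492 genes only. With the 10 other cells nearest in UMIs to each megakaryocyte-primed cell as the comparison, the log2 fold changes were 2.07 for Rap1b, 0.84 for Tmsb4x, -1.93 for Plac8 and -2.32 for Mpo. In that fit 39 genes (7.93%) were called, 11 higher and 28 lower. It held 2 genes of the maturation list (median 1.30), 5 neutrophil and monocyte genes (-1.37) and 2 lymphoid genes (-1.51), but also 1 platelet receptor gene (-0.06) and 2 transcription factors (-0.17), so most of the megakaryocyte genes could not be tested at matched depth. Against all other kept cells, not matched for depth, megakaryocyte-primed cells had a lower mitochondrial share, 9.29 ± 1.48% of UMIs against 10.6 ± 0.842% in the other cells (SD, n = 16 libraries), a difference of -1.26 percentage points that was lower in 13 of 16 libraries (two-sided paired permutation test, p = 0.00266). Against the depth-matched cells the difference was -0.931 points (same test, p = 0.0207). Within batches the difference from all other kept cells was -0.841 in SB341 (exact p = 0.121, 9 libraries) and -1.63 in SB343 (exact p = 0.0312, 6 libraries). At 500 UMIs a cell, the median number of genes detected was 367 ± 12.04 in megakaryocyte-primed cells and 352 ± 6.04 in the other cells, higher by 14.8 genes and in 14 of 16 libraries (permutation p = 0.000122). With a mitochondrial maximum of 10%, it was higher by 5.34 genes (permutation p = 0.0218). It was higher by 14.6 genes in SB341 (exact p = 0.00781) and by 15.5 in SB343 (exact p = 0.0625, n = 6 libraries).

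The megakaryocyte-primed cells differed among themselves along the M sum. Genes the rule did not use are given here as sums over the cells of each step, with no test, since M set the steps. The megakaryocyte maturation list stood at 1740 CPM in cells with an M of 0, 1942 CPM at an M of 1 (and E of 0), 3436 CPM at 2, 4978 CPM at 3, 5246 CPM at 4 to 7 and 5745 CPM at 8 or more. Most of that step therefore lay between an M of 1 and an M of 3. Rap1b stood at 219, 214, 493, 1170.1, 1158 and 1329 CPM over the same steps. Cd34 ran the other way, at 623, 612, 369.6, 170.2, 105.3 and 42.9 CPM, and Plac8 stood at 1709, 1421, 889.7, 553, 298 and 257 CPM. Gata2 peaked at an M of 2 with 452 CPM, but 7 of the 30 cells gave all 33 of those UMIs. Cells with an M of 8 or more were also deeper, with a median of 3948.5 UMIs, against 1627 to 1919 UMIs in the other steps of the rule; CPM are relative to depth, but whether depth plays a part in these steps was not tested.

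**Figure D5:**
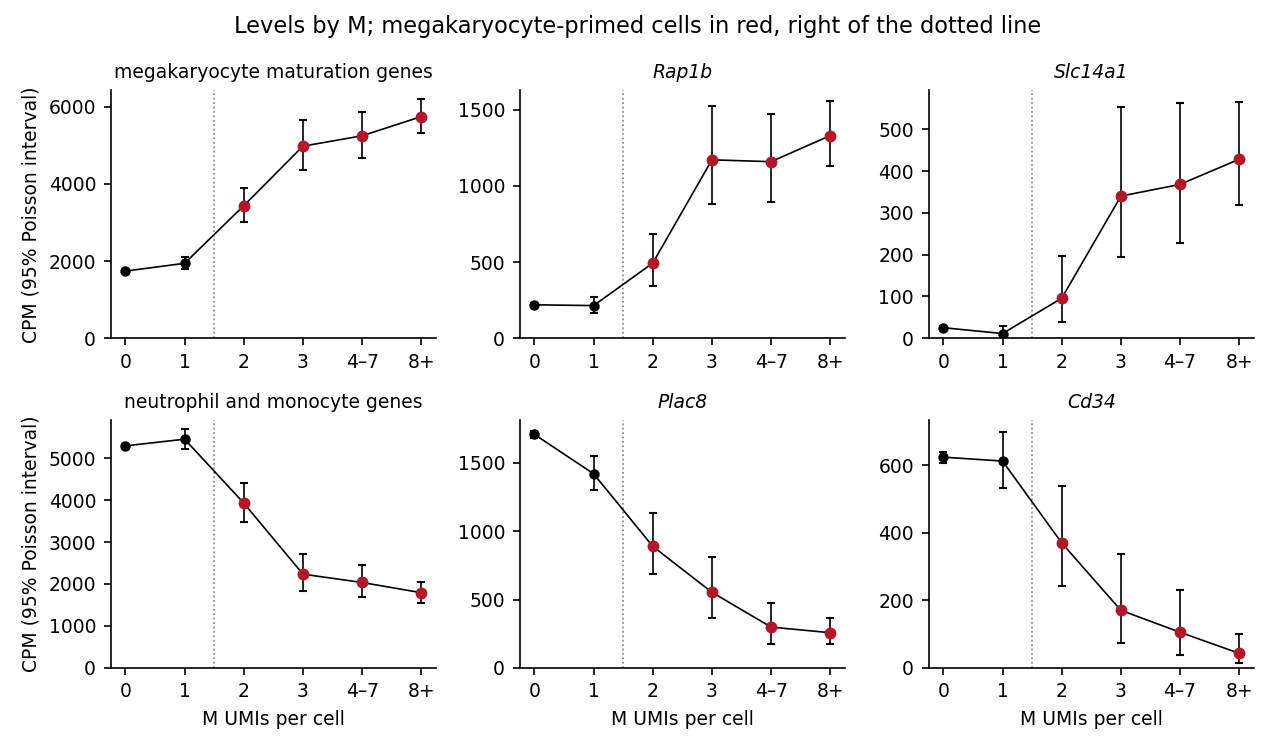
Level in CPM of 4 genes and 2 gene lists against the M sum (0, 1, 2, 3, 4 to 7, 8 or more), with 95% Poisson intervals. The maturation list stands at 1942 CPM at an M of 1 and 4978 CPM at an M of 3, and Cd34 at 612 and 170.2 CPM.

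The 6 cells with the highest M carried 26 to 50 UMIs of the 5 genes. The highest, in library 14, had 41 UMIs of Pf4, 4 of Itga2b, 4 of Cavin2 and 1 of Vwf among 4344 UMIs in all, with 9 of Rap1b. The next, in library 13, had 39 UMIs of Pf4, 4 of Vwf and 10 of Slc14a1 among 3985. The one after that, also in library 13, had an M of 39 beside an E of 11. The other 3 came from libraries 14, 5 and 1, so high M was not limited to 1 library. None of the 6 had a UMI of Cd34 or of Dntt.

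Vwf marks stem cells biased towards platelets in the mouse, and was found in 22 of 106 megakaryocyte-primed cells (20.8%, 14.1 to 29.4%), 12 of 379 erythroid-primed cells (3.17%), 2 of 442 stem-gated cells (0.452%) and 18 of the remaining 4230 cells (0.426%). Vwf is in the rule, so the first share is raised by it. The planned test of Vwf-positive against Vwf-negative cells could not be run, as no library had 5 cells of each. As a description, Vwf-positive cells had 5766 CPM of the maturation list and Vwf-negative cells 4612 CPM. Cd34 stood at 23.2 CPM (2 UMIs) in Vwf-positive cells and 212 CPM (44 UMIs) in Vwf-negative cells, Plek at 440 CPM in Vwf-positive and 256 CPM in Vwf-negative cells, and Ly6a at 46.3 CPM in Vwf-positive and 149.5 CPM in Vwf-negative cells. Clu, which is listed among genes of aged stem cells, had 6 UMIs in Vwf-positive cells and 1 in Vwf-negative cells. Of the stem cell rule genes, Pdzk1ip1 stood at 127 CPM (11 UMIs) in Vwf-positive cells and 72.4 CPM (15 UMIs) in Vwf-negative cells, and Hlf at 57.9 CPM (5 UMIs) in Vwf-positive and 72.4 CPM (15 UMIs) in Vwf-negative cells. Mecom and Procr had no UMI in Vwf-positive cells and 2 each in Vwf-negative cells, too few to compare. The list of platelet-biased and aged stem cell genes stood at 1007 CPM in Vwf-positive and 728 CPM in Vwf-negative cells. Vwf-positive cells were deeper, with a median of 3958.5 UMIs against 1908.5 in Vwf-negative cells.

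The cells were also split by their erythroid and stem cell UMIs, as a description with no test. An E of 1 or more was found in 64 of the 106 cells; these had 1191 CPM of Rap1b, 184 CPM of Gata2 and 99.7 CPM of Cd34, against 824, 475 and 262 CPM in the 42 cells with an E of 0. The rule asks for M above E, so cells with a higher E had to have a higher M. This split therefore also sorts the cells by M, along which Rap1b, Cd34 and Gata2 differed as given above. What E adds beyond M was not tested. At least 2 stem cell UMIs (Mecom, Hlf, Procr, Pdzk1ip1) were found in 13 cells, which had 16.99 CPM of Itgb3 from 1 UMI, against 131 CPM in the 76 cells with none. By position in the series, F2r stood at 350 CPM in megakaryocyte-primed cells of libraries 9 to 16 and 135 CPM in those of libraries 1 to 8, and Itgb3 at 142 CPM in libraries 9 to 16 and 41.5 CPM in libraries 1 to 8. In the other cells of the same libraries, F2r stood at 48.9 CPM in libraries 9 to 16 and 31.0 CPM in libraries 1 to 8, and Itgb3 at 13.4 CPM in libraries 9 to 16 and 3.64 CPM in libraries 1 to 8, so both classes differed in the same direction.

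Megakaryocyte-primed and erythroid-primed cells, which share an origin, were set side by side over fewer genes, since fewer passed the filter. There 5 of 787 were called in libraries 10, 13 and 14 (0.635%), 3 higher (0.381%) and 2 lower (0.254%), and 5 of 445 in 16 libraries (1.12%), 2 higher (0.449%) and 3 lower (0.674%). Rap1b had 1892, 1081 and 1373 CPM in megakaryocyte-primed cells, against 262, 302 and 280.1 CPM in erythroid-primed cells, and log2 fold changes of 2.32 ± 0.25 (adjusted p = 8.96e-05) in the 3 libraries and 1.71 ± 0.17 (adjusted p = 1.41e-11) in 16. Tmsb4x had 2927, 2935 and 2989 CPM in megakaryocyte-primed cells, against 1037, 1227 and 934 CPM in erythroid-primed cells, with log2 fold changes of 1.44 ± 0.14 (adjusted p = 8.28e-05) and 1.01 ± 0.10 (adjusted p = 1.41e-11). Both stayed called with each library left out in either fit. Plek (2.22 ± 0.41, adjusted p = 0.0189) was higher and Plac8 (-1.35 ± 0.24, adjusted p = 0.0173) and the transferrin receptor Tfrc (-2.51 ± 0.52, adjusted p = 0.0425) were lower in the 3 libraries, where 2 genes were called without library 13, 2 without library 14 and 6 without library 10. Plek passed the filter on low counts there only through the megakaryocyte-primed sums, which largely fixed its direction. In 16 libraries, Plac8 (-1.17 ± 0.16, adjusted p = 1.84e-07), Fth1, the ferritin heavy chain (-0.58 ± 0.13, adjusted p = 0.00426), and Cd34 (-1.07 ± 0.28, adjusted p = 0.029) were lower; Cd34 lost the call without library 4, 9, 11, 12 or 16 (adjusted p up to 0.126), and 10 genes were called without library 5 and 8 without library 15. These comparisons share the megakaryocyte-primed sums with the first one.

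Without a filter on low counts, 26 of 16713 genes were called (0.156%), 18 higher (0.108%) and 8 lower (0.0479%). Among the higher were Slc14a1 (1.77 ± 0.31, adjusted p = 4.51e-05), Itgb3 (2.32 ± 0.51, adjusted p = 0.0073), Tmem40 (1.92 ± 0.41, adjusted p = 0.00369), Fli1 (1.33 ± 0.32, adjusted p = 0.0347) and Treml1 (2.84 ± 0.66, adjusted p = 0.0146). None of these genes is part of the rule. The erythroid membrane gene Ermap had no UMI in megakaryocyte-primed cells and 76.1 CPM in erythroid-primed cells, at least 7.13-fold lower at a floor of 3 UMIs over all libraries; Atp1b2 was at least 5.92-fold and the metallothionein gene Mt2 at least 9.63-fold lower. Gata1, which both lineages use, stood at 61.3 CPM in megakaryocyte-primed cells and 116 CPM in erythroid-primed cells and was not called (-0.98 ± 0.42, adjusted p = 0.983), nor was Gata2 (0.30 ± 0.27, adjusted p = 0.983) or F2r (1.05 ± 0.30, adjusted p = 0.197).

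Against stem-gated cells, 27 of 584 genes were called in the 3 libraries (4.62%), 13 higher (2.23%) and 14 lower (2.4%), but 2 without library 14, 22 without library 13 and 23 without library 10. In 16 libraries 49 of 459 genes were called (10.7%), 23 higher (5.01%) and 26 lower (5.66%). Without a filter on low counts 116 of 16816 were called (0.69%), 57 higher (0.339%) and 59 lower (0.351%). Slc14a1 had 495, 412 and 421 CPM in megakaryocyte-primed cells and no UMI in stem-gated cells of the same libraries. Over 16 libraries, stem-gated cells had 13 UMIs of it and megakaryocyte-primed cells 94. Rap1b had 1892, 1081 and 1373 CPM in megakaryocyte-primed cells, against 368, 221 and 126 CPM in stem-gated cells, with log2 fold changes of 2.47 ± 0.28 (adjusted p = 2.68e-15) and 2.28 ± 0.18 (adjusted p = 1.08e-15). Plek (2.98 ± 0.61, adjusted p = 0.000106) and Tmsb4x (1.02 ± 0.16, adjusted p = 7.35e-08) were higher in the 3 libraries. There Slc14a1, Rap1b and Plek passed the filter on low counts only through the megakaryocyte-primed sums, which largely fixed their direction. Without a filter, Itgb3 had 109 CPM over all megakaryocyte-primed cells and 2.76 CPM over stem-gated cells, F2r 279 CPM over all megakaryocyte-primed cells and 34 CPM over stem-gated cells, Gata2 286 CPM over all megakaryocyte-primed cells and 74.5 CPM over stem-gated cells and Treml1 17 UMIs in megakaryocyte-primed cells and none in stem-gated cells; all were called (adjusted p of 3.36e-08, 1.84e-10, 3.85e-05 and 3.24e-06).

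Lower than in stem-gated cells were Cd34, with 225, 283 and 199 CPM in megakaryocyte-primed cells, against 737, 623 and 672 CPM in stem-gated cells (-1.51 ± 0.36, adjusted p = 0.00168, and -1.93 ± 0.26, adjusted p = 4.37e-08 in 16 libraries), H2afy, with 991, 849.7 and 465 CPM in megakaryocyte-primed cells, against 2007, 1895 and 1218 CPM in stem-gated cells (-1.19 ± 0.21, adjusted p = 3.02e-06, and -1.26 ± 0.11, adjusted p = 1.04e-13), and Ifitm1 (-1.91 ± 0.46, adjusted p = 0.00168, and -2.02 ± 0.27, adjusted p = 2.90e-08). For Cd34 and H2afy, each value in megakaryocyte-primed cells lay below that of stem-gated cells of the same library. Plac8 (-1.19 ± 0.16, adjusted p = 6.45e-08), the actin-bundling Lcp1 of white cells (-1.51 ± 0.25, adjusted p = 9.96e-06), Vim, the intermediate filament vimentin (-0.99 ± 0.21, adjusted p = 0.000959), and Myb, a factor of immature progenitors (-0.80 ± 0.23, adjusted p = 0.016), were lower in the 16 libraries. Car2 was higher (0.64 ± 0.16, adjusted p = 0.00436). Calls of these genes in 16 libraries did not depend on any single library. Meis1 (0.30 ± 0.33, adjusted p = 0.962) and the growth factor gene Angpt1 (0.66 ± 0.27, adjusted p = 0.487), both active in stem cells, did not pass without the filter.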

How the data were processed

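MARS-seq profiled sorted LSK cells in 16 libraries of 384 wells. The deposited count tables hold UMI counts per gene and well for 52542 rows, 92 of them spike-ins, which were left out. The submitters' processing notes name mm10 as the build and, as a tool, bcl2fastq (version 2.15.0.4). Aligner, counter and strand use: not given in the sources used here. A table of wells gives sorted cell numbers and batches for 15 libraries; library 1 is absent from it and was kept.

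Wells listed without a cell were dropped, and wells with at least 500 UMIs and a mitochondrial share under 20% kept (86 wells were over it). UMIs were summed per library and class. The main fit used edgeR 4.0.16 (quasi-likelihood, TMM, filterByExpr, library block, Benjamini-Hochberg at 0.05) in R 4.3.3, on libraries with 10 cells in each class; the added 16-library fit asked for 2 cells and used library totals. The rule's genes were not tested. Both sums of a pair come from the same plate, which is why the library is a block. Doublets were not called; wells were sorted singly. Other steps used Python 3.11.15, numpy 2.4.6, pandas 2.3.3 and scipy 1.17.1; DESeq2 1.42.0 served as an alternative. The scripts were tested on simulated data. All libraries carry one label, so p-values measure the spread between libraries. No 2 libraries agreed within sampling noise (chi-square per degree of freedom 1.64 to 12.4 over 120 pairs).

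Members and gene lists were chosen with earlier results of these data known. Named genes were the 12 largest and 12 smallest called log2 fold changes with the same sign in at least 75% of libraries, up to 4 called genes of smallest p per list, and any member of the megakaryocyte, platelet receptor and thrombopoietin lists; some further genes are named after their values were seen. CPM are UMI counts scaled by a class's total. Intervals cover counting error only. Some genes of the lists are not reported here. Gene symbols follow the files; overlaps come from GENCODE M21 (GRCm38).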

Additional observations from a re-analysis of the deposited data

How the results depend on the processing

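The number of genes called depends on the cells and on the scaling. Against the other cells, the 3-library count of 61 became 20 with DESeq2, 31 with no replicate block and 32 with a mitochondrial maximum of 10%; it ran from 8 to 58 with a library left out. The 16-library count of 170 became 512 with DESeq2, 485 with TMM factors, 65 at the 10% maximum, 12 after thinning to 500 UMIs, 59 with Pf4 left out of M, 39 with depth-matched cells, 92 in the 13 libraries outside the planned fit, 50 in SB341 and 88 in SB343, and ran from 138 to 177 with a library left out. Against erythroid-primed cells, the 3-library count of 5 became 2 with DESeq2, 3 with no replicate block, 9 at 1000 UMIs a cell and 3 at the 10% maximum (2 to 6 with a library left out). The 16-library count of 5 became 26 without the filter, 8 at 1000 UMIs, 3 at the 10% maximum, 9 with an M of 3 or more, 0 after thinning, 3 in SB341, 11 in SB343 and 3 in the 13 libraries (4 to 10 with a library left out). Against stem-gated cells, the 3-library count of 27 became 4 without the filter, 6 with DESeq2 and 10 with no replicate block (2 to 23 with a library left out). The 16-library count of 49 became 116 without the filter, 29 with no replicate block, 11 at the 10% maximum, 2 after thinning, 11 with Pf4 left out of M, 16 in SB341, 31 in SB343 and 23 in the 13 libraries (34 to 50 with a library left out). The mitochondrial difference missed the threshold in SB341 (-0.841) and at the 10% maximum (-0.399), and lay between -1.47 and -1.13 with a library left out; genes per cell at 500 UMIs missed it in SB343 (15.5), fell to 5.34 at the 10% maximum and lay between 13.9 and 16 with a library left out. Fewer cells or libraries entered the thinned, 10% and within-batch fits; for the other settings the cause was not tested. Angpt1 (-0.38) and Mki67 (-0.16) changed sign when cells were thinned. Of the named genes, the 3-library calls kept direction in all 185 values with a library left out, 95 of them past the threshold no longer. The genes of largest change were named only when all 3 libraries had the same sign, so their direction was largely fixed beforehand. The planned fits had fewer than 2 libraries left with an M of 3 or more, after thinning, without Pf4 and in SB341, and gave no value.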
